A study of Beta vulgaris with 6 samples.

Results

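The 6 members described here are array probes for sugar beet transcripts of redox, apoplast and defence-related proteins, out of 53752 probes on the array. They are P2166 (cystatin), P18880 (germin-like protein), P21683 (peroxidase), P20782 (thaumatin-like protein), P20469 (cytosolic thioredoxin h) and P21586 (cytochrome b561). All 6 were chosen by function from the study's list of probes that differed between bolting-resistant and bolting-sensitive genotypes. They were therefore selected on the same difference in these samples that is given below, and its values are a description with no test. The study asked which transcripts differ in the shoot apical meristem between genotypes that do and do not bolt after a long cold exposure. Total RNA of 6 biennial genotypes (Beta vulgaris altissima) was hybridized, 3 labelled bolting resistant (genotypes 1, 4 and 7) and 3 labelled bolting sensitive (genotypes 2, 3 and 5). All plants were grown for 8 weeks at 22 °C with a photoperiod of 16 h and then kept for 9 weeks at 4 °C, so that no group without cold entered the comparison. Each genotype is represented by a single meristem, so that plant and genotype cannot be told apart. Its RNA was hybridized to 1 array or, for genotypes 3 and 7, to 2 arrays, in all 8 arrays. Any other difference between the genotypes of the groups cannot be told apart from bolting with 3 genotypes per group. The numbers of the genotypes are not paired here with the names R and S used in the study.

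Bolting is the elongation of the flowering stem, and biennial beet needs prolonged cold (vernalization) before it can bolt. The apoplast is the space outside the plasma membrane, made up of cell walls and the fluid between them, where secreted enzymes make and use reactive oxygen, modify the wall and meet pathogens. Germin-like proteins, class III peroxidases and thaumatin-like proteins are mostly secreted to this space. Thioredoxin h reduces disulphide bonds of proteins in the cytosol. Cytochromes b561 are membrane proteins that pass electrons from ascorbate across a membrane. Cystatins inhibit papain-like cysteine proteases.

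Values are log2 signals minus the array's 75th percentile, so that 0 is the level of a spot at that percentile, and a difference of 1 is 2-fold. A level can be compared between genotypes for 1 probe but not between probes. The 75th percentile of the signal lay between 288.4 and 422.6 on the 8 arrays, between 42.6% and 45% of the spots gave a signal well above background, and saturation affected 0 spots. A probe was retained if it passed all quality flags on all arrays of at least 1 group, which held for 22314 probes and for all 6 members. Each member has 1 spot on an array. Over the retained probes the median pooled SD within the groups was 0.348, and the median difference between duplicate arrays was 0.057 for genotype 3 and 0.066 for genotype 7. No probe was paired with a gene that defines the shoot apical meristem, so the labelled tissue was not checked against its own markers.

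All 6 members had a higher mean in the sensitive than in the resistant genotypes, by more than 2-fold on the recorded signals, and for all 6 every sensitive genotype lay above every resistant genotype. Among all retained probes, 3.7% had group means more than 2-fold higher in the sensitive genotypes and 3.6% had non-overlapping groups in that direction. By limma without adjustment, together with a 2-fold change, 6 members were called, against 0.995% of the retained probes in that direction. After Benjamini-Hochberg adjustment over all retained probes limma called 1 member, P2166, against 0.0493% of the retained probes in that direction. The size of these differences follows from the choice of the members out of a list selected on this contrast. The limma calls are therefore no test of the members, P2166 included. The shared direction of the members was not tested either. They were chosen with earlier results of these data known, and the list also holds related probes in the other direction. Of the 54 pairs of a resistant and a sensitive genotype over the 6 members, 40 differed by more than 2-fold when the resistant signals of P21683 and P20782, which were not well above background, were taken at their limit, and 45 on the recorded signals. In bulk tissue, fewer cells that contain a transcript and less of it per cell cannot be told apart.

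**Figure D1:**
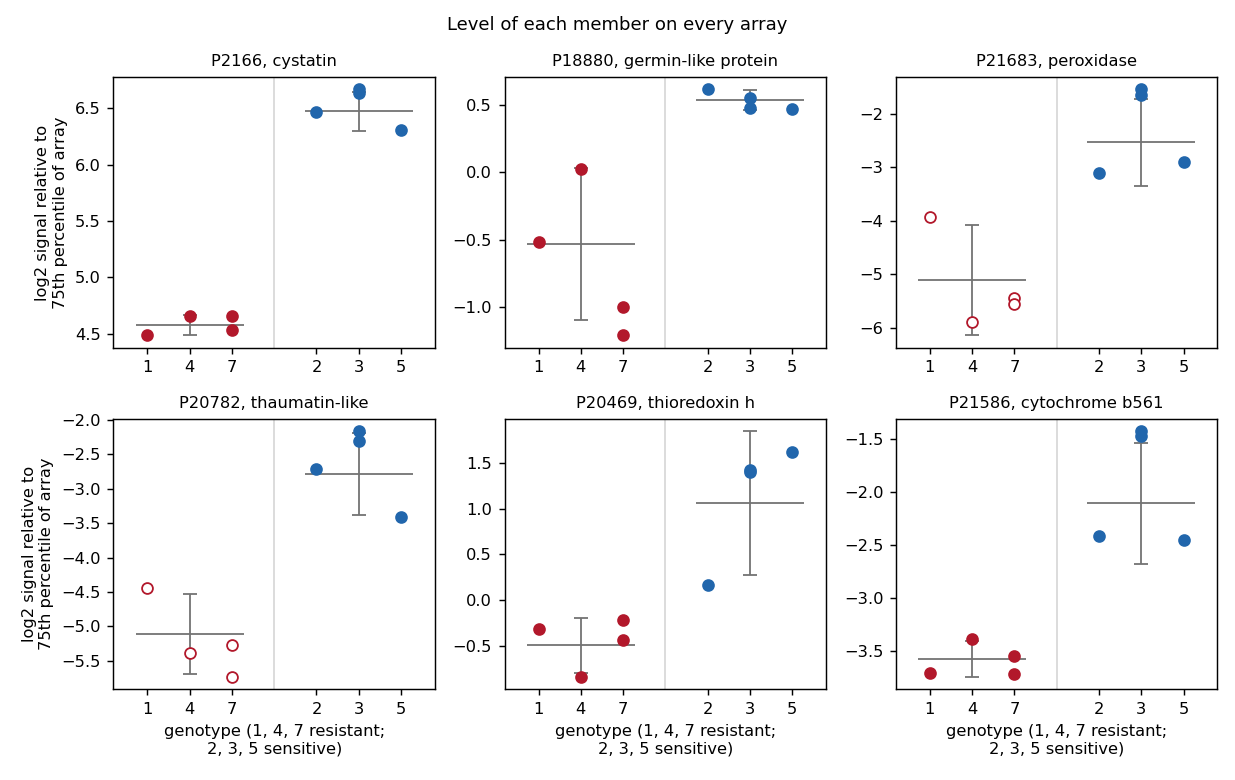
Each panel plots the log2 signal of 1 member, from which the array's 75th percentile was subtracted (vertical axis), for each genotype (horizontal axis), with resistant genotypes in red, sensitive genotypes in blue and 1 point per array. Open points did not pass all quality flags, grey bars give the mean ± 1 SD over the 3 genotypes of a group, and in each of the 6 panels the blue points lie above the red points.

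The cystatin probe P2166 (accession FG345694, gene model Bv4_074360_ejeh on chromosome 4, closest Arabidopsis gene AT3G12490, CYSB) had the most even values within the groups of the 6 members. Its log2 level was 4.48, 4.66 and 4.59 in the resistant genotypes 1, 4 and 7. In the sensitive genotypes 2, 3 and 5 it was 6.47, 6.65 and 6.31. The groups were far apart: the closest resistant and sensitive genotypes differed by 3.14-fold and the widest pair by 4.49-fold. The resistant mean was 4.58 ± 0.086 (SD, n = 3) and the sensitive mean 6.48 ± 0.172 (SD, n = 3), a difference of -1.90 (limma SE 0.175) or 3.73-fold. The pooled SD of 0.136 was at percentile 7.1 of the retained probes, that is, among the lower ones. The first array minus the second was -0.035 for genotype 3 and -0.123 for genotype 7, and the linear signal lay between 7268 and 42000, so that background had little weight. Within the groups 4 of the 5 gaps between neighbouring genotypes were smaller than the combined error that the scanner software gives, and the fifth was the gap between the groups. Leaving out 1 genotype in turn gave differences between -1.98 and -1.81.

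The germin-like protein probe P18880 (BQ586261, Bv6_125340_epqo on chromosome 6, AT1G09560, GLP5) lay closest to the 2-fold limit. Germin-like proteins share the fold of germin, and some of them have superoxide dismutase activity. Its log2 level was -0.51, 0.023 and -1.11 in genotypes 1, 4 and 7. In genotypes 2, 3 and 5 it was 0.62, 0.52 and 0.47. The sensitive genotypes were nearly level, with both of their gaps within the software's error, whereas the resistant genotypes spanned 1.13 on the log2 scale. The mean was -0.53 ± 0.565 (SD, n = 3) against 0.54 ± 0.073 (SD, n = 3), a difference of -1.07 (limma SE 0.308) or 2.1-fold. Genotype 4 was 1.37-fold below genotype 5, the closest sensitive genotype, and 1.51-fold below genotype 2, and 5 of the 9 pairs differed by more than 2-fold. Genotype 7, the lowest, decided whether the mean difference was beyond 2-fold. Without it the difference was -0.78, and without genotype 4 it was -1.35. The duplicate arrays of genotype 7 differed by 0.213, and all 8 arrays passed the flags with signals from 162 to 620.

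The thioredoxin h probe P20469 (BQ584576, Bv1_006970_jood on chromosome 1, AT1G45145) showed the opposite spread, with a smaller SD in the resistant than in the sensitive genotypes. In Arabidopsis, thioredoxins h take part in the redox control of the defence regulator NPR1. The log2 level was -0.31, -0.84 and -0.33 in genotypes 1, 4 and 7. In genotypes 2, 3 and 5 it was 0.16, 1.41 and 1.62. Genotype 2 stood nearer to the resistant genotypes than to the other sensitive ones: it was 1.39-fold above genotype 1 and 1.41-fold above genotype 7. The mean was -0.50 ± 0.301 (SD, n = 3) against 1.06 ± 0.789 (SD, n = 3), a difference of -1.56 (limma SE 0.427) or 2.95-fold, and 7 of the 9 pairs differed by more than 2-fold. Without genotype 2 the difference was -2.01 and without genotype 5 it was -1.28. Signals lay between 161 and 1132 and all 8 arrays passed the flags. Genotypes 1 and 7 were the only neighbours in the order 5, 3, 2, 1, 7, 4 whose gap was within the software's error.

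The cytochrome b561 probe P21586 (BQ583433, Bv_42740_cxmc on no assigned chromosome, AT4G25570, ACYB-2) was dim but passed the flags on all 8 arrays. Its linear signal was 31.9 in genotype 1, 27.6 in genotype 4, and 27.6 and 32.1 on the arrays of genotype 7. In the sensitive genotypes it was 73.7 in genotype 2, 157 and 148 on the arrays of genotype 3, and 62.8 in genotype 5. Genotype 3 stood above the other sensitive genotypes, which were level with each other, as were the 3 resistant ones. On the log2 scale the levels were -3.71, -3.39 and -3.63 in genotypes 1, 4 and 7, and -2.42, -1.45 and -2.46 in genotypes 2, 3 and 5. The mean was -3.58 ± 0.169 (SD, n = 3) against -2.11 ± 0.57 (SD, n = 3), a difference of -1.47 (limma SE 0.318) or 2.76-fold. The pairs of genotype 4 with genotypes 5 and 2 differed by 1.9-fold and 1.96-fold, and the other 7 pairs by more than 2-fold. Without genotype 3 the difference was -1.14. With the normexp background correction, which adds an offset of 50 to every signal, it was -0.56.

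The peroxidase probe P21683 (BQ583336, Bv6_126050_jcsf on chromosome 6, AT5G66390, peroxidase 72) failed the software's test for a signal well above background in all resistant genotypes. Class III peroxidases use hydrogen peroxide to oxidize phenolic compounds of the wall, and peroxidase 72 of Arabidopsis acts in lignification. The linear signal was 27.4 in genotype 1, 4.86 in genotype 4, and 8.40 and 7.93 on the arrays of genotype 7. The signal of genotype 1 was above 22.1, the faintest that passed this test on its array, but did not pass the test itself. In genotype 2 it was 46.0, on the arrays of genotype 3 it was 145 and 132, and in genotype 5 it was 46.0. Genotype 3 was the brightest, genotypes 2 and 5 were within the software's error of each other, and for genotype 4 the error of 4.87 was as large as the signal. The recorded log2 levels were -3.93, -5.89 and -5.50 in genotypes 1, 4 and 7, and -3.10, -1.60 and -2.91 in genotypes 2, 3 and 5. The recorded means were -5.11 ± 1.04 (SD, n = 3) and -2.53 ± 0.819 (SD, n = 3), and the limma SE of their difference of -2.57 was 0.643. A nominal limit was set on each dim array at its faintest signal well above background or at the probe's signal where that was higher. Against it the sensitive mean was 2.86-fold higher than the resistant mean. The limit is no strict bound, since genotype 1 failed the test at a signal above the faintest passing one. Against these limits 6 of the 9 pairs differed by more than 2-fold, the closest by 1.68-fold, and without genotype 3 the recorded difference was -2.10.

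The thaumatin-like probe P20782 (BQ584258, Bv1u_020490_gzti, assigned to chromosome 1 without a position, AT1G20030) behaved in the same way with respect to background. Thaumatin-like proteins form a family of pathogenesis-related proteins, and some of them inhibit fungal growth. The linear signal was 19.1 in genotype 1, 6.85 in genotype 4, and 9.41 and 7.04 on the arrays of genotype 7. It was 59.9 in genotype 2, 94.6 and 83.4 on the arrays of genotype 3, and 32.5 in genotype 5. All 4 arrays of sensitive genotypes passed the flags and none of the 4 arrays of resistant genotypes did, so that the order of the resistant genotypes is not resolved. The recorded log2 levels were -4.45, -5.39 and -5.50 in genotypes 1, 4 and 7, and -2.72, -2.23 and -3.41 in genotypes 2, 3 and 5. The recorded means were -5.12 ± 0.581 (SD, n = 3) and -2.79 ± 0.591 (SD, n = 3), a difference of -2.33 (limma SE 0.42). Against the same nominal limit, the sensitive mean was 2.58-fold higher. Against the limits 6 of the 9 pairs differed by more than 2-fold, the closest by 1.36-fold. The duplicate arrays of genotype 7 differed by 0.465, the widest duplicate difference among the members, at a signal below the limit.

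**Figure D2:**
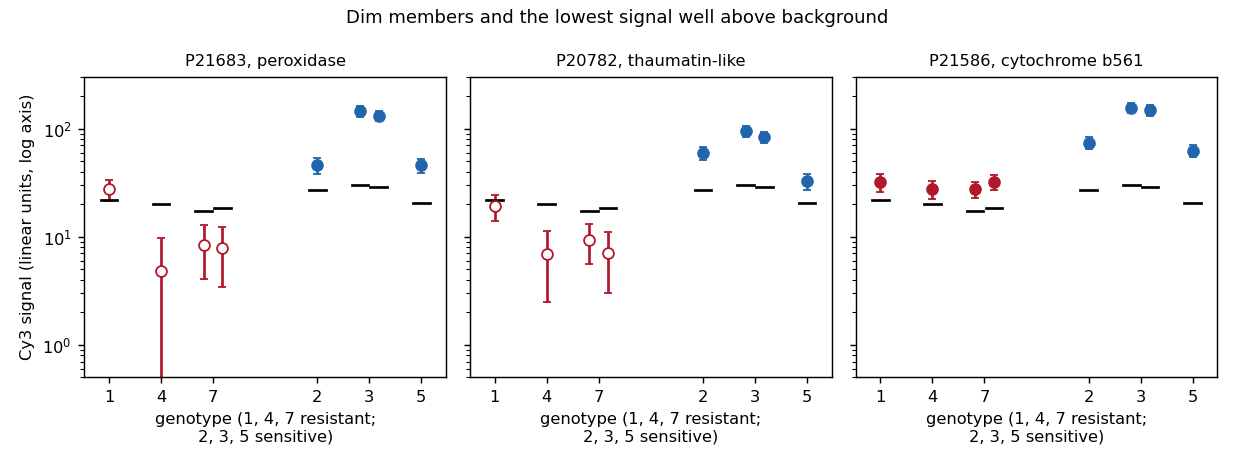
Background-subtracted Cy3 signal (linear units on a log axis) of the 3 dim members on each of the 8 arrays, by genotype, with the error given by the scanner software as bars, which are cut at the lower edge for P21683 in genotype 4. Black dashes mark the lowest signal well above background on the same array, and open points did not pass all flags. P21683 and P20782 have open points in all resistant genotypes, whereas P21586 passed on all arrays.

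The genotype at the top or the bottom of a group was not the same for all members. Genotype 3 was the highest sensitive genotype for 4 members and genotype 5 the lowest for 4. The gap that put genotype 5 lowest was within the software's error for P18880, P21586 and P2166, and beyond it for P20782. For genotype 3 the gap was within the error for P2166. Of the 4 members measured above background in all resistant genotypes, genotype 4 was the highest of these for 3 and genotype 1 for 1, and genotype 1 was the lowest for 2, genotype 4 for 1 and genotype 7 for 1. Beyond the error, genotype 4 was the highest for P18880 alone. The gaps that put genotype 1 highest or lowest were all within the error. On the recorded signals, 14 of the 30 gaps between neighbouring genotypes over the 6 members were within the combined error of the scanner software. The members also differed in how much the mean rested on 1 genotype, as the plot of the differences shows.

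**Figure D3:**
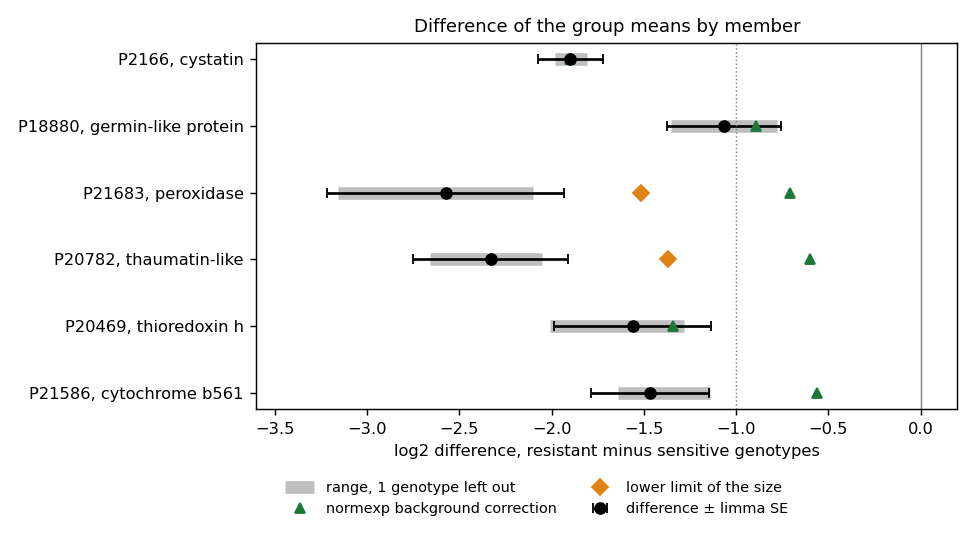
Difference of the group means (log2, resistant minus sensitive, horizontal axis) for each member, with the limma SE as black bars and the range over leaving out each genotype in grey. Orange diamonds give the nominal lower limit of the size for P21683 and P20782, and green triangles the difference after normexp correction, which is -0.71 for P21683, -0.60 for P20782 and -0.56 for P21586. The dotted line marks 2-fold.

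Probes taken by their descriptions as markers of leaf, dividing or vacuolate cells also differed between these groups. They too come from the study's list selected on these samples. Of 5 marker probes, 4 were higher in the resistant genotypes (among all retained probes 3.32% were beyond 2-fold, 3.7% without overlap and 0.748% past the unadjusted limma threshold in that direction) and 1 in the sensitive genotypes. The exception was P3296, the small subunit of ribulose bisphosphate carboxylase (RbcS), the carbon-fixing enzyme of leaves. Its log2 level was -1.49, -3.36 and -2.21 in genotypes 1, 4 and 7, and -1.31, -0.091 and -0.086 in genotypes 2, 3 and 5. Its order of genotypes was that of the thioredoxin probe P20469: genotypes 5 and 3 were high, genotype 2 stood near genotype 1, and genotype 4 was lowest. The other photosynthesis-related probe, P18878 (photoprotection of photosystem II), ran the other way, with a resistant mean of 2.66 ± 0.137 (SD, n = 3) and a sensitive mean of 1.31 ± 0.053 (SD, n = 3). As the leaf probes ran in opposite directions, no sum over them is given. Histone H3 (P905) was taken as the marker of dividing cells, though its description names no variant. Its linear level was 46.4 to 72 times the array's 75th percentile in the resistant genotypes, against 13.8 to 25.8 in the sensitive. The sum of 2 probes for tonoplast aquaporins, proteins of the vacuole membrane (P27398 and P8364, on 1 gene model), was 109 to 182 against 53.8 to 102 on this scale. Over the 6 genotypes, P3296 had a positive Pearson's r with every member. The 4 markers higher in the resistant genotypes had a negative one with every member. The group difference on which all were selected enters each r. Every array measured all 5 marker probes well above background, and none was at 0. Their part in the differences of the 6 members was not tested.

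Other probes of the study's list with redox functions did not share 1 direction. Of 10 such probes, 5 had the higher level in resistant genotypes and 5 in sensitive ones. All were beyond 2-fold, a limit on which the study's list was selected. Beyond 2-fold, 3.32% of all retained probes were higher in the resistant genotypes and 3.7% in the sensitive. The study's list itself holds both directions in similar numbers, so a split of this kind is not particular to redox probes or to the lists that follow. Both other peroxidases were higher in the resistant genotypes, opposite to P21683: peroxidase 67 (P15141) by 1.12 (limma SE 0.302) and peroxidase 52 (P3154) by 1.33 (SE 0.388) on the log2 scale. The probe for polyamine oxidase 1 (P10327), which forms hydrogen peroxide from polyamines, was higher in them by 1.67 (SE 0.475), with all flags passed on 3 of the 4 sensitive arrays. P18967 and P28698, which lie on 1 gene model for cysteine synthase C1, were also higher in them. The difference was 2.89 for P18967, while P28698, with all flags passed on 1 of 4 sensitive arrays, had a recorded difference of 3.19. In the other direction, the probe described as a protein involved in ascorbate biosynthesis (P5226) had a difference of -3.42 (SE 0.823). Its levels in genotypes 2 and 3, 1.21 and 1.32, were far above that of genotype 5, -1.68, and all resistant genotypes were near the mean of -3.14 ± 0.151 (SD, n = 3). Ascorbate is the electron donor of cytochromes b561. The alternative oxidase AOX1A (P24917), a mitochondrial oxidase that bypasses part of the respiratory chain, was higher in the sensitive genotypes, by 3.05-fold against the nominal limit. Glutathione transferase GSTU20 (P27928), an NAD(P)-linked oxidoreductase-like protein (P2490) and glyoxylate reductase 2 (P13424) had differences of -1.08, -1.37 and -1.06.

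Of 11 probes for proteins of the apoplast and cell wall or related to them, 6 had the higher level in resistant genotypes and 5 in sensitive ones. The subtilisin-like protease ARA12 (P9355) was the 1 whose groups overlapped, and 2 of its 4 sensitive arrays passed all flags. P13201 and P22172, both on 1 gene model for a wall-associated receptor kinase-like protein, were higher in the resistant genotypes. The difference was 5.45-fold against the nominal limit for P13201 and 4.86 (SE 0.757) on the log2 scale for P22172. Genotype 1 lay below genotypes 4 and 7 for both. The aspartyl protease probes P13476 and P1169 were higher in the resistant genotypes by 1.86 and 1.88. Phytepsin (P18191), an aspartic protease known from the vacuole in barley, was higher in the sensitive genotypes by 7.44-fold against the nominal limit. Endoglucanase 17 (P11137), a pectin lyase-like protein (P12372), a lipid-transfer protein (P28380) and a gibberellin-regulated protein (P517) had differences of -1.81, -1.19, -1.08 and -1.02. P12372 passed all flags on 3 of the 4 resistant arrays. TBL31 (P12855), of a family that acetylates wall polysaccharides, was higher in the resistant genotypes by 2.67.

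Of 5 defence-related probes, 3 were higher in the sensitive genotypes. These were an osmotin-like protein (P24625), which belongs to the thaumatin-like family as P20782 does, at -1.81 (SE 0.509), a pathogenesis-related protein (P8652) at -1.21 and the lipoxygenase LOX2 (P21769), an enzyme of jasmonate synthesis, at -1.30. Of the 4 arrays of resistant genotypes, 2 passed all flags for the osmotin-like probe and 3 for the LOX2 probe. The LURP-one-related protein (P13844) and the Argonaute protein AGO2 (P23497), which acts with small RNAs, were higher in the resistant genotypes by 2.42 and 1.22 on the recorded signals. P13844 passed all flags on 2 of the 4 sensitive arrays. Of 4 probes named for cold or dehydration, the dehydrin (P1893) and ERD7 (P17628) were higher in the sensitive genotypes, at -1.40 and -1.33. The probes P2821 and P2401, on 1 gene model for DI21, were higher in the resistant genotypes by 1.18 and 1.16. As with the members, these related probes were selected by the study on the same samples. Of the 35 related and marker probes, limma called 35 at the unadjusted threshold with 2-fold and 0 after adjustment. Among all retained probes, the unadjusted shares were 0.995% higher in the sensitive genotypes and 0.748% higher in the resistant. After adjustment they were 0.0493% and 0.0314%.

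**Figure D4:**
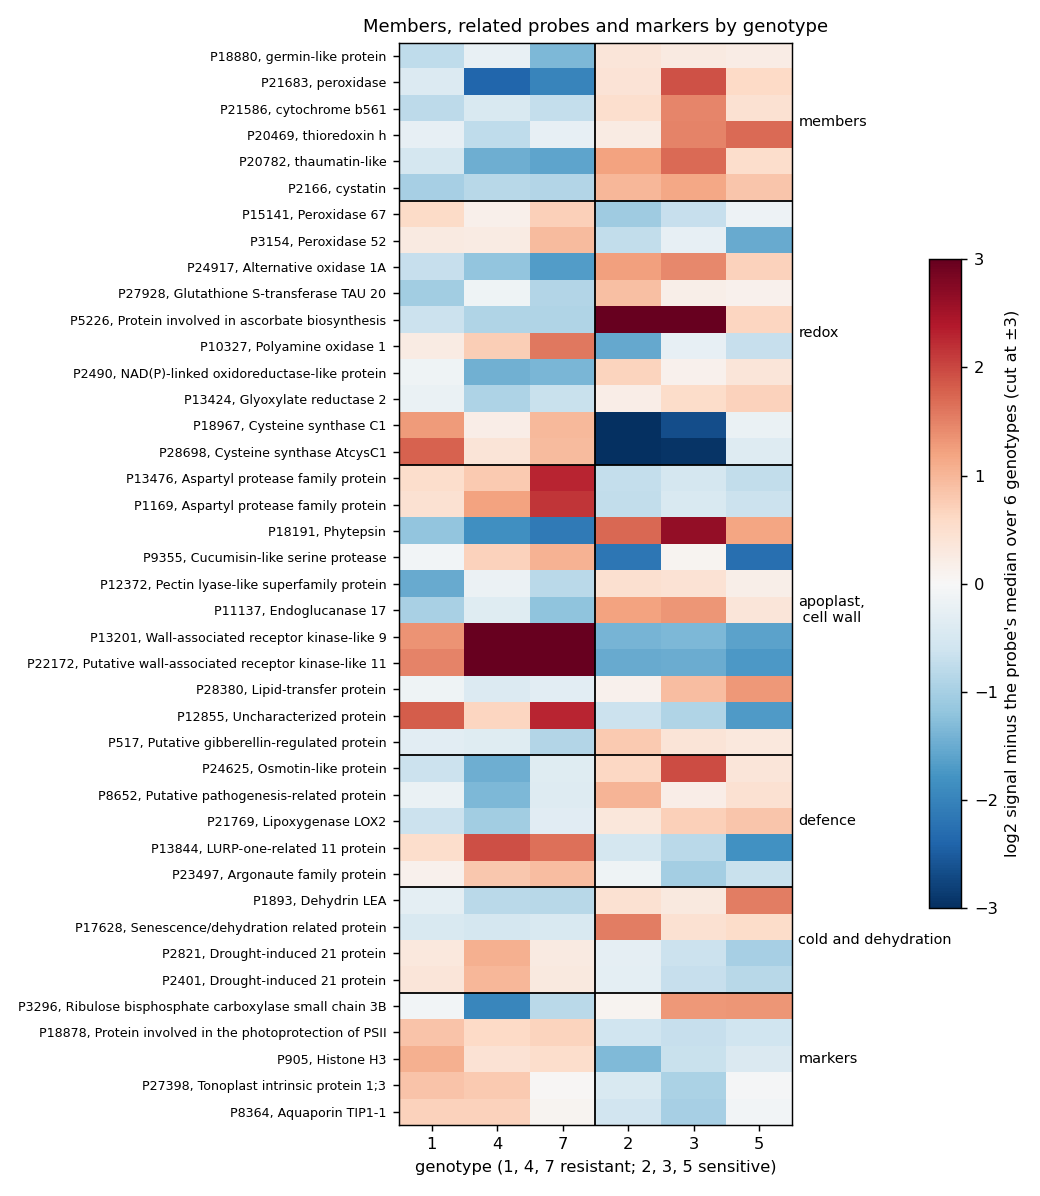
Log2 signal of the 6 members, 30 related probes and 5 markers, each minus its median over the 6 genotypes (colour, red high and blue low), by genotype. All 6 members are higher in the sensitive genotypes to the right of the line, while the redox probes divide into 5 and 5.

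Likeness of pattern was measured as Pearson's r of log2 levels over the 6 genotypes, among probes of the study's list. Since those probes and the members were selected on 1 contrast, the group difference itself enters each r, and it is given as a description. The cystatin P2166 was most like a phosphoglycerate mutase family protein (P19891, r = 0.996), a DEAD/DEAH box helicase (P20413, r = 0.993) and an HXXXD-type acyl-transferase-like protein (P457, r = 0.991). The thaumatin-like P20782 was most like AOX1A (P24917, r = 0.989), phytepsin (P18191, r = 0.989) and P12759, which has no described hit (r = 0.965). For all 3 of P20782, P24917 and P18191 no array of a resistant genotype was well above background, so that part of the shared pattern lies below the limit. The peroxidase P21683 was most like an uncharacterized protein (P15288, r = 0.978), P20782 itself (r = 0.961) and glyoxylate reductase 2 (P13424, r = 0.946).

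The thioredoxin P20469 was most like the lipid-transfer protein (P28380, r = 0.988), a tyrosine phosphatase-like protein (P21516, r = 0.967) and LOX2 (P21769, r = 0.945), in which genotypes 3 and 5 were also the highest. The cytochrome b561 P21586 was most like a cytochrome P450 (P26490, r = 0.967), the receptor-like kinase MRH1 (P21747, r = 0.953) and P21270 with no described hit (r = 0.953). The germin-like P18880 was most like a caleosin-related protein (P20983, r = 0.985), an uncharacterized protein (P15483, r = 0.955) and P50 with no described hit (r = 0.952). P50 had a difference of -0.98 here, just outside the 2-fold limit, where P18880 at -1.07 was just inside. Among the 22313 other retained probes, whichever their annotation, between 21 (P21586) and 39 (P2166) reached an r of 0.95 with a member, and between 20 and 42 an r of -0.95 or lower.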

How the data were processed

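Cy3-labelled cRNA from the shoot apical meristem of 6 genotypes was measured on 8 arrays of 1 slide. The authors deposited 1 scanner file per array (Feature Extraction 10.7.3.1), whose spot intensity is linear, has the background removed and carries no normalization across arrays. A second deposited file holds log2 values, scaled per array to the 75th percentile and centred per probe. Of its values, 99.99% lay within 0.05 of the centred values computed here from the first array of each genotype, which settles its scale, centring and direction. Its column medians were -0.229, 0.046, 0.086, 0.098, -0.078 and -0.252 for genotypes 1, 2, 3, 4, 5 and 7.

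The 75th percentile of log2 intensity over non-control spots was subtracted on each array, and spots of 1 probe, then arrays of 1 genotype, were averaged. Probes were retained on the software's flags for outliers, saturation, significance and background. limma 3.58.1 in R 4.3.3 (data.table version 1.17.8, jsonlite 2.0.0) compared resistant minus sensitive genotypes over all 22314 retained probes, with a p threshold of 0.05 and 2-fold. With 1.94 prior degrees of freedom and 3 genotypes per group, their number limits the precision. With 1 meristem per genotype, the p-values measure a spread that holds both plant and genotype differences.

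Where every array of 1 group lacked a signal well above background, the fold was taken against a nominal limit: the mean of the bright group against, per dim array, the faintest signal well above background or the probe's signal, whichever was higher. A signal can fail the background test above that faintest one, so the fold is not a strict lower bound. The members and the lists of related probes and markers were chosen with earlier results of these data known. The genes named are the members, for each the 3 probes most like it, and related probes picked by their description in the study's list. Accessions, gene models and descriptions come from that list. Of the 6 accessions and 6 gene models of the members, 0 matched the RefSeq gene table, and no sequence is printed. The pipeline was tested on simulated data. Alternatives were other scalings, background corrections, filters, arrays, tests and leaving out each genotype. Figures were drawn with matplotlib 3.10.9.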

Additional observations from a re-analysis of the deposited data

How the results depend on the processing

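No member changed direction under any alternative. The groups of all 6 members stayed apart under the other scalings, background corrections and choices of array, and in the authors' log2 values. Leaving out a genotype could change neither, since the groups did not overlap. Overlap was not recomputed for the ratio of linear means. The normexp correction adds an offset of 50, which by itself shrinks the differences of dim probes. With it 2 of 6 members were beyond 2-fold (P20469 at -1.34 and P2166 at -1.90). The other differences were -0.71 for P21683, -0.60 for P20782, -0.56 for P21586 and -0.89 for P18880. When signals below the faintest one well above background were raised to it, they were -1.52 for P21683 and -1.37 for P20782. P18880 alone fell below 2-fold with scaling to the array median (-0.94), a ratio of linear means and without genotype 7 (-0.78). Scaling to the median moved the median difference of the retained probes from 0.009 to 0.134 and the share of limma calls higher in the resistant genotypes from 42.9% of 389 to 60% of 420. Under it the members were at -0.94 (P18880), -2.45 (P21683), -1.34 (P21586), -1.44 (P20469), -2.20 (P20782) and -1.77 (P2166).

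Of all retained probes, 1566 were beyond 2-fold in either direction, against 988 with normexp, 3100 with no flag filter and 998 with flags passed in both groups. The unadjusted limma count of 389 was 776 with no flag filter, 181 with the methods' t-test at equal variances, 132 in its Welch form, and 320 to 765 over leaving out each genotype, the highest without genotype 1. The count without overlap was 1628, 3031 with no flag filter and 2993 to 5201 with 1 genotype left out, where fewer genotypes make overlap rarer. The cause of the other changes was not tested. No paired analysis was possible because the genotype numbers do not pair the groups. All arrays share 1 slide and 1 scan, so neither could be a block. Signal over background limits P21683 and P20782. P21586 passed all flags but moved from -1.47 to -0.56 with normexp correction. The offset of 50 in that correction is larger than its resistant signals, of at most 32.1. A shrinkage is thus built in for a probe this dim, and the shift does not show what part background has.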
